A study of Mus musculus with 14 samples.

Results

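The set described here holds 80 of the 42006 probes of a mouse oligonucleotide array, those whose RNA lay high after 48 h of retinoic acid (RA) and low in colonies picked on day 4 of RA. They were chosen by measured values of these arrays. Each spot's log2 ratio of sample over reference was centred on its array's median. A probe then had to be well above background on both RA 48 h arrays and both standard day 3 arrays, and control day 3 could exceed LY294002 by less than 0.5, which 18846 probes met. These were ranked by the smallest of 4 differences, namely RA 48 h minus each of 2 untreated groups and each untreated group minus day 4 colonies. The 80 with the largest such value (the rule's score) are the members. All 80 were among the 31053 probes tested, which had to clear background in Cy3 on each array of 1 or more groups.

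RA is a form of vitamin A that enters the nucleus and binds RA receptors, which sit on DNA and switch target genes when the ligand arrives. In embryonic stem (ES) cells it drives exit from the undifferentiated state, while the cytokine LIF helps to hold cells in it. LY294002 blocks phosphoinositide 3-kinase, a lipid kinase that relays growth factor and LIF signals. By the series text, the day 4 colonies were chosen as ones whose cells were still pluripotent.

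The data are 14 Agilent 2-colour arrays, 2 in each of 7 groups, from ES cells of the line MC1 (strain 129SvEv-Tac) and its sublines. Sample RNA was labelled with Cy3 and hybridised beside a common Cy5 reference, RNA of 11 cell lines mixed with ES cell RNA. Control day 3 was MC1-ZE3 grown for 3 days in LIF medium without a drug. RA 48 h and LY294002 48 h were MC1-ZE3 grown for 1 day in LIF medium and then given 50 nM all-trans RA or LY294002 for 48 h. The label gives 10 nM for LY294002, and whether that unit is right is in doubt, so the size of the LY294002 values belongs to a dose that is not settled. Standard day 3 was untreated MC1-ZE3 in standard culture. Day 4 colonies came from MC1-ZE16 in LIF medium with 50 nM RA, and day 7 colonies from MC1 itself with LIF and 50 nM RA. Passage 10 was MC1-ZE3 kept in RA for 7 days, withdrawn from it and carried through 10 passages before RNA was taken on day 3. Each subline is a single line, and colonies were pooled. The series text says that the day 7 colonies were picked by hand, while their extraction protocol describes lysis of a whole well. The protocol on pooled picked colonies is attached to every other group, untreated ones included. Nothing in the labels ties the arrays of a group to separate cultures, so the p-values rest on a spread between arrays that may be technical.

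Sequences show what was measured, since no gene name comes with any probe and no member shared 20 bases with any RefSeq promoter window or miRNA of GRCm38.p6. The defining markers of ES cells, feeder fibroblasts or differentiated cells could therefore not be checked. The 80 probes are 60 bases long, and 3 of them hold the same word of 12 bases. These 3 are all the probes on the array that hold it (3 of 42006, 0.00714%), against 3.75% of the members. The reverse complement of the word was found in 0 probes. The word came from a search, made with the members in view, for every word of 12 bases held by at least 3 members. From the words found, it was chosen because every probe of the array that holds it is a member. The contrast of 0.00714% with 3.75% is therefore built into the choice and is not a test of enrichment. The 3 probes follow, with the word in capitals.
Z00054177-1: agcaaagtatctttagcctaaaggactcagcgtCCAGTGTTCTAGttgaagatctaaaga
Z00003936-1: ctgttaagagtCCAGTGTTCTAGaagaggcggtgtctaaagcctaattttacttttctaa
Z00012803-1: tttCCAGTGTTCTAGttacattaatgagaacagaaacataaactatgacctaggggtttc
Pairs of these probes shared unbroken runs of 13 to 15 bases. Another such word, tccagtgttcta, is the same stretch shifted by 1 base, so that all 3 probes share 13 bases, the capitals and the t before them. The only other word shared by 3 members was catgatcaaata, held by 4 probes of the array. It lies within the 31 bases, in capitals, that a pair of members have in common.
Z00061030-1: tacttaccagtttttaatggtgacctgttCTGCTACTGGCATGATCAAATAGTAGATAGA
Z00024617-1: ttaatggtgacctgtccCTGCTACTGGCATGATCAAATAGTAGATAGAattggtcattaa
Just before the capitals the probes of this pair differ (gacctgtt against gacctgtcc), so they do not match over the whole stretch that would overlap. Whether they read the same RNA is not known. Both probes stay in the counts of the 80 members below, where they are not separate evidence. A match of letters says nothing about what binds or regulates these RNAs.

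The next 7 sequences belong to members that the results below turn on. The first has the second-highest score, the next 3 the largest rises in day 7 colonies over passage 10, and the last 3 the largest falls.
Z00025827-1: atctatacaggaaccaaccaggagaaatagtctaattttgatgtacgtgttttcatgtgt
Z00030484-1: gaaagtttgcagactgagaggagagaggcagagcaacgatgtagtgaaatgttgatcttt
Z00023899-1: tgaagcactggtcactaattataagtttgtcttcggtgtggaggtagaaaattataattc
Z00050062-1: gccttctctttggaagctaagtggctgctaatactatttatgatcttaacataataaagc
Z00033292-1: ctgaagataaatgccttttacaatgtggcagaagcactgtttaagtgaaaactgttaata
Z00025437-1: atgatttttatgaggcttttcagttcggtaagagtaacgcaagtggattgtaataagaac
Z00007756-1: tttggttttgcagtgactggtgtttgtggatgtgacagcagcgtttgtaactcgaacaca

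The share of all probes that cleared background in Cy3 ran from 56.1% to 75.1% over the arrays. It was 73.1% to 74.8% in control day 3, 68.6% to 75.1% at 48 h of RA and 65.7% to 68.8% with LY294002. It was 66.1% to 66.3% in day 7 colonies, 57.9% to 58.2% in standard day 3, 58.5% on each day 4 array and 56.1% to 58.6% at passage 10. The part of this difference in brightness in the results was not tested. Control day 3 and RA 48 h lay on the same slide, while LY294002 had a slide of its own. Day 4 and day 7 colonies each had a slide of their own as well as a line of their own. Standard day 3 and passage 10 shared 2 slides. Replicate arrays correlated at r = 0.987 to 0.998 across the 80 members, which are not independent replicates, and the number of arrays limits the precision. Across all tested probes r was 0.972 to 0.993, and day 7 colonies had the lowest value in both cases. Day 7 colonies alone were scanned on scan day 1, and control day 3, RA 48 h and LY294002 on scan day 2. Standard day 3 and passage 10 each had an array on scan days 3 and 4, and day 4 colonies fell on scan day 4. For day 4 colonies as for day 7 colonies, line, slide and culture cannot be told apart in any comparison with the other groups. For day 7 colonies the same holds for scan day. RA 48 h against standard day 3 also crosses slides and scan days. For LY294002, agent and slide cannot be told apart. In RNA from whole cultures or pooled colonies, fewer cells that make an RNA cannot be told apart from less of it per cell.

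The values that chose the members are given as a description, without a test. By the rule's own scaling, the members lay above control day 3 at 48 h of RA by a log2 difference of 0.73 to 3.20 (median 1.20) and above standard day 3 by 0.74 to 2.70 (median 1.30). Day 4 colonies lay below standard day 3 by 0.74 to 4.54 (median 1.36) and below control day 3 by 0.73 to 5.07 (median 1.34). The smallest of the 4 differences was RA against control for 28 members, RA against standard for 20, standard against day 4 for 12 and control against day 4 for 20. Scores ran from 2.26 for Z00030484-1 and 1.85 for Z00025827-1 down to 0.73 for Z00059861-1. The last 5 members scored 0.74, 0.74, 0.74, 0.73 and 0.73, and the first 5 probes left out scored 0.73, 0.73, 0.73, 0.72 and 0.72. The set thus has no gap at its lower end.

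All values from here on are log2 ratios of sample over reference after background correction by normexp and loess within each array, a scaling that compresses dim spots. On this scale the median of the 80 members was -0.70 and -0.68 on the control day 3 arrays and -0.84 and -0.81 on the standard day 3 arrays. It was 0.27 and 0.34 at 48 h of RA, and -1.32 and -1.31 in day 4 colonies. The median of all tested probes stayed between -0.02 and 0.00 on every array. In control day 3 54 of 80 members lay below 0, at 48 h of RA 33 and in day 4 colonies 74. The dyes were not swapped on any array, so the sign of a single ratio also holds the probe's dye bias, while differences between groups compare the same dye.

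These differences chose the members by another scaling and are again a description. The RA 48 h mean lay above the control mean for 80 of 80 members, with a median difference of 0.99. Day 4 colonies lay below standard day 3 for 80 of 80, with a median difference of -0.52. Against control day 3, the day 4 mean was lower for 72 members and higher for 8. Of those 8, 6 were not well above background on at least 1 day 4 array, among them Z00020763-1 (day 4 minus control 0.48) and Z00026637-1 (0.17). Under the rule's own scaling all 80 were lower, as chosen.

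Much of the low end in day 4 colonies was out of the arrays' reach. In these colonies 24 members were not well above background on either array and 6 on only 1 of 2, although all 80 were well above background in control day 3, RA 48 h, LY294002 and standard day 3. For a member dim on both day 4 arrays the fold is a lower bound. It is the Cy3 mean of the brighter group against, on each day 4 array, the higher of the probe's own signal and the dimmest probe well above background. Z00050062-1 was at least 6.40-fold higher at 48 h of RA than in day 4 colonies, and Z00022184-1 at least 2.23-fold. By the log ratios to the reference, the same comparisons came to 7.30-fold and 2.26-fold. The bound depends on the channel: it exceeded the fold of the log ratios for 5 of the 24 dim members with RA as the brighter group, and for 16 of 24 with standard day 3. For standard day 3 over day 4 colonies no bound is therefore given, and the size of that difference in the dim members is not known.

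Some members stayed measurable in day 4 colonies and lay far below the other groups there. Z00074836-1 lay at -1.38 and -1.37 in control day 3, at -1.20 and -1.26 in standard day 3 and at 0.35 and 0.49 at 48 h of RA. In day 4 colonies it lay at -3.21 and -3.26, below every array of the other 3 groups just named. Z00033292-1 lay at 1.36 and 1.35 in control day 3, at 2.07 on each RA array, at 0.28 and 0.27 in standard day 3 and at -2.54 and -2.43 in day 4 colonies. Its day 4 arrays lay below all 6 of these arrays, and its place near the end of the ranking came from its excess at 48 h of RA over control, which was 0.71 here. Z00025827-1 was less clear. It lay at 0.35 and 0.36 in control day 3, at 2.13 and 2.05 at 48 h of RA and at 0.19 and 0.39 in standard day 3. In day 4 colonies it lay at -0.18 and -0.40, where only 1 of 2 spots was well above background. RA lay above control and standard by 1.74 and 1.80, while day 4 differed from them by only -0.64 and -0.58. On the rule's scaling its RA mean was 2.82, its control and standard means 0.77 and 0.97 and its day 4 mean -1.20. The steps above and below the untreated level were thus of like size on that scaling only.

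LY294002 was bounded on 1 side by the rule, which left out probes that it lowered, so these values too are a description. The members' median was -0.13 and -0.15 on the LY294002 arrays, between control day 3 and RA 48 h. The mean with LY294002 lay above control for 65 of 80 members and for 401 of 615 other RA-raised probes (defined below), which met the same bound. Without that bound, it did so for 15669 of 31039 tested probes with a value. The median differences were 0.43, 0.19 and 0.00. At 12 members LY294002 lay above RA, as it did at 31 of the 615 and at 14950 of 31041 tested probes with a value. Z00024953-1 stood farthest above (RA minus LY294002 -0.85), followed by Z00062965-1 (-0.74) and Z00022184-1 (-0.59), which were singled out after their values were seen. Z00022184-1 lay at -0.99 and -0.63 in control day 3, at 0.06 and 0.22 at 48 h of RA and at 0.75 and 0.72 with LY294002, and the 3 groups did not overlap. These RNAs lay higher than control at 48 h of either agent.

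Day 7 colonies and passage 10 cells were not used to choose the members, so the difference between them can be tested. Passage 10 did share its slides with standard day 3, which the rule used and favoured where it was high over day 4 colonies. The test asks whether these RNAs were also low in the later colonies, with cells that had long left RA as the baseline. With limma (adjusted p under 0.05 by Benjamini-Hochberg over all 31053 probes), 54 of 80 members differed (67.5%), where 55.7% of all tested probes did. The rule required members to be well above background on the RA and standard day 3 arrays, which the tested probes did not have to be. The shares of members and background are therefore not like for like, here and below. The part of brightness in the excess was not tested. In day 7 colonies 25 members were higher (31.2%, background 29.1%) and 29 were lower (36.2%, background 26.6%). At least 2-fold, 15 differed (18.8%, background 9.54%), of which 9 were higher (11.2%, background 5.97%) and 6 lower (7.50%, background 3.57%). The members' median difference was -0.04, and that of all tested probes 0.01. Members thus went both ways, with a few more lower than higher (29 and 25) but more higher than lower at 2-fold or more (9 and 6). Their lower share exceeded that of all probes in every setting tried except when all 14 arrays had to be well above background (30.6% against 32.8%). The balance depended on the scaling: with normexp and centring on the median in place of loess 24 were higher and 14 lower (all probes 24.5% and 9.95%), and among the 65 members in the values deposited by the authors 18 were higher and 32 lower (all probes 25.6% and 35.9%). With a normexp offset of 0, 29 members were higher and 26 lower. Of the 49 members well above background on all 14 arrays, 21 were higher (42.9%) and 15 lower (30.6%). Among all probes that bright, the shares were 34.6% and 32.8%, each above its share of all tested probes (29.1% and 26.6%). With slide as a random block 26 members were higher and 29 lower. The day 7 arrays had a slide of their own, so this fit cannot set slide apart from group.

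The largest rises in day 7 colonies over passage 10 include the member with the highest score. Z00030484-1 lay at 0.40 and -0.09 on the day 7 arrays and at -2.42 and -2.31 at passage 10, a log2 rise of 2.52 (SE 0.13, n = 2 and 2, limma adjusted p = 5.83e-09), or 5.72-fold. The same probe lay at -4.05 and -4.09 in day 4 colonies, -3.10 and -3.13 in control day 3 and -0.42 and -0.34 at 48 h of RA. Its day 4 and day 7 colonies were thus the lowest and the highest groups of the 7. Z00023899-1 lay at 2.25 and 1.99 on day 7 and at 0.09 and 0.08 at passage 10, a rise of 2.03 (SE 0.10, limma adjusted p = 3.76e-09), with 0.65 and 0.85 at 48 h of RA. It was not well above background on either day 4 array, where at least 2.02-fold less was found than at 48 h of RA. Z00050062-1 lay at 2.89 and 2.22 on day 7 and at 0.52 and 0.63 at passage 10, a rise of 1.97 (SE 0.15, limma adjusted p = 2.09e-07). Its day 7 level was near its 2.73 and 2.72 at 48 h of RA. Z00035945-1 rose by 1.47 (SE 0.09, limma adjusted p = 2.85e-08) and Z00035371-1 by 1.30 (SE 0.07, limma adjusted p = 5.90e-09). Z00035371-1 lay at 0.37 and 0.22 on day 7, at -2.36 on each day 4 array and at 0.51 and 0.60 at 48 h of RA.

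The largest falls ran lower still than the day 4 level in most cases. Z00033292-1 lay at -3.10 and -3.44 in day 7 colonies and at -0.21 and -0.15 at passage 10, a log2 difference of -3.09 (SE 0.09, n = 2 and 2, limma adjusted p = 3.38e-11), or 8.51-fold less. Both kinds of colony lay below all 10 arrays of the other 5 groups for this probe. Z00025437-1 lay at -2.44 and -2.49 on day 7, at -1.95 and -1.87 on day 4 and at -0.12 and -0.14 at passage 10, a fall with a log2 difference of -2.33 (SE 0.07, limma adjusted p = 3.46e-11). Z00007756-1 lay at -1.98 and -1.91 on day 7, at -1.14 and -1.24 on day 4 and at 0.28 and 0.33 at passage 10, a difference of -2.25 (SE 0.09, limma adjusted p = 3.61e-10). The day 7 arrays of both probes lay below their day 4 arrays without overlap. Z00074836-1 differed by -1.72 (SE 0.08, limma adjusted p = 1.15e-09), with -2.81 and -3.02 on day 7, slightly above its day 4 level. Z00025177-1 differed by -1.59 (SE 0.10, limma adjusted p = 2.04e-08). The remaining member at least 2-fold lower was Z00036180-1 (-1.14), named after its values were seen, which was well above background on 1 of 2 passage 10 arrays.

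The 10 members with the highest scores also went both ways. Of these, 6 were lower and 3 higher in day 7 colonies than at passage 10 by the same test. Among all tested probes 26.6% were called lower and 29.1% higher, and 10 members are too few to set against these shares. Z00030801-1 did not pass the test (difference -0.12, adjusted p = 0.229 by limma). Z00025827-1 lay at -0.36 and -0.22 on day 7 and at 0.54 on each passage 10 array, a difference of -0.83 (SE 0.09, limma adjusted p = 3.86e-06). Z00035316-1 differed by -0.72, Z00022184-1 by -0.51, Z00024389-1 by -0.46 and Z00044931-1 by -0.35. Z00039251-1 was higher by 0.87 (SE 0.16, limma adjusted p = 0.000347), at 2.00 and 1.46 on day 7 against 0.72 and 1.00 at passage 10. It had lain at -0.34 and -0.32 on day 4.

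Set against all the values of the study, the day 7 means of the members were spread over the whole range between RA and day 4. They lay above the RA 48 h mean for 6 members, between RA and the higher untreated mean for 29, between the 2 untreated means for 10 and below both untreated means for 35. Of these 35, 15 also lay below the day 4 mean. The 6 above RA were Z00030484-1, Z00023899-1, Z00035945-1, Z00025845-1, Z00025196-1 and Z00020442-1. Against standard day 3, which the rule used, the day 7 median was 0.01 with extremes of -3.55 and 2.91, and the 25th and 75th percentiles were -0.30 and 0.41. Against day 4 colonies, also used by the rule, the day 7 mean was higher for 64 members and lower for 16, with a median of 0.62. It was higher for 15845 of 31033 tested probes with a value (median 0.01) and for 412 of 615 other RA-raised probes (median 0.24). The members were chosen for low day 4 values, which favours a higher day 7 value, so these counts are a description. The label of lowered in colonies thus holds for the whole set only in day 4 colonies, by the rule. The 35 members below both untreated means on day 7 include small differences, such as -0.01 from control for Z00022184-1. The share of all tested probes in that position was not computed. Day 7 lay below standard day 3 for 39 members and for 14899 of 31033 tested probes with a value. It lay below control day 3 for 41 members and for 15437 of 31036 such probes.

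Other probes raised as much at 48 h were mostly high in day 7 colonies. For this comparison 615 probes outside the set were taken that passed the same filters on background and LY294002 and lay at least 0.73 above both untreated groups at 48 h of RA by the rule's scaling, the smallest excess of any member. The members differ from them in the rule's day 4 terms, which favour low day 4 and high untreated values. Standard day 3 lay on the slides of passage 10, so the comparison of the sets is not independent of the rule. Of the 615, 459 were higher in day 7 colonies (74.6%) and 42 lower (6.83%), with a median difference of 0.65. At least 2-fold, 207 were higher and 3 lower. Among the members the shares were 31.2% and 36.2%, and the median was -0.04. Over the alternatives of processing and left-out arrays, 68.1% to 76.1% of the other raised probes and 26.2% to 42.9% of the tested members were called higher. These are counts, and no test of the difference between the sets was made. In day 4 colonies, whose values separate the sets by choice, the other raised probes had a median of 0.27 over standard day 3 and the members -0.52.

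The mean of passage 10 cells lay within a log2 difference of 0.59 of the standard day 3 mean in all 80 members. Single arrays could lie farther apart. Z00008434-1, with the difference of 0.59, lay at -2.11 and -3.07 at passage 10 and at -3.18 and -3.19 in standard day 3. Against standard day 3, with which passage 10 shared its slides and whose values the rule used, the median difference was 0.07 and the lowest -0.57. Among all tested probes 16 lay at least a log2 of 1 up and 16 that far down. Both passage 10 arrays lay above both standard arrays for 36 members (45.0%, all tested probes 24.4%) and below them for 19 (23.8%, all tested probes 21.4%). Against control day 3 the differences were wider, from -1.54 to 0.95 with a median of 0.00. The passage 10 mean lay between the 2 untreated means for 21 members, between them and RA 48 h for 35 and below both for 24. The rule chose low day 4 and high RA 48 h values, which favours passage 10 values between them. Passage 10 lay above day 4 colonies for 77 of 80 members, with a median of 0.72. It did so for 15074 of 31038 tested probes with a value (median -0.01) and for 160 of 615 other RA-raised probes (median -0.33). Passage 10 lay above RA 48 h for no member, and the share of all tested probes in that position was not computed.

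The 3 probes with the shared word did not move as a block once RA and day 4 were set aside. Z00003936-1 lay at -0.56 and -0.82 in day 7 colonies against -1.87 and -1.82 at passage 10, a rise of 1.16 (SE 0.10, limma adjusted p = 8.04e-07). Z00054177-1 differed by 0.23 (adjusted p = 0.0831 by limma) and Z00012803-1 by 0.11 (adjusted p = 0.419 by limma). With LY294002 they also parted: Z00003936-1 lay at -0.37 and -0.40 against -1.55 and -1.52 in control day 3, while Z00012803-1 lay at -2.23 and -2.04 against -1.69 and -1.77. The pair with the long shared run, Z00061030-1 and Z00024617-1, ran close together. They lay at -0.43 and -0.33 against -0.47 and -0.32 at 48 h of RA and at -2.53 on each day 4 array against -2.26 and -2.25. Their differences between day 7 and passage 10 were 0.28 (adjusted p = 0.00769 by limma) and 0.22 (adjusted p = 0.0513 by limma), on either side of the threshold.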

How the data were processed

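Per the file headers, the scanner output was written by Agilent Feature Extraction (version 9.5.1.1). Its intensity values (mean signal and median local background) were deposited without normalization. The deposited log10 ratios are Cy5 over Cy3 of signals background-subtracted and dye-normalized by that software, per the file headers. The authors' deposited value table holds log10 values with array medians of 2.24 to 2.32, which were centred here. Differences between its arrays follow those of the sample over reference ratios (r = 0.852 to 0.972 across probes), while its original centring stays unknown. Its further processing is not given in the sources used here.

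The rule used the log10 ratios, sign turned, divided by 0.30103 and centred on each array's median. For all other values, normexp (offset 50), loess within arrays and group means over 14 arrays were fitted with limma 3.58.1 (R 4.3.3, statmod 1.5.0). Residual degrees of freedom were 7, and the prior added 5.33. Control spots had weight 0, and 1 to 24 outlier spots per array were left out. The steps were tested on simulated data.

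Members and lists were chosen with earlier results of these data known. Named probes are the 10 highest scores, 5 probes on each side of the rank limit, the 5 largest rises and falls between day 7 and passage 10 among called members whose arrays do not overlap, and members sharing 20 bases. As no probe has a gene name, gene lists and cell type markers were not applied. Alternatives covered scaling, offset, filter, arrays, blocks and the rule.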

Additional observations from a re-analysis of the deposited data

How the results depend on the processing

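Which probes are members depended most on the scaling. With the rule applied to normexp and loess log ratios 37 of the 80 stayed in the top 80, and with normexp without loess 34 did. In the authors' values, which hold 65 members, 60 stayed, without the bound on LY294002 61 stayed, and leaving out an array kept 72 to 79. The cause was not tested. Of the 10 highest scores, 10 stayed whichever array was left out. With the rule on normexp and loess log ratios 6 of these 10 stayed in the top 80, with normexp without loess 5, and in the authors' values 9. For day 7 colonies against passage 10, the count of lower members (29) became 14 with normexp without loess and 15 of 49 when every array had to be well above background, which tests fewer members. The total of 54 called members was 36 to 57 over the alternatives, and 48 to 54 (22 to 25 higher, 26 to 29 lower) with an array left out, where the lone array is assumed to vary like the other groups. All 10 named rises and falls kept direction and call wherever tested. The median of the members in day 7 colonies minus standard day 3 was 0.16 with normexp without loess, -0.07 with the Cy3 channel alone and -0.21 with the authors' table, where all probes had medians of 0.08, -0.01 and -0.10; with an array left out it was -0.02 to 0.00. For passage 10 minus standard day 3 it was 0.12 with the rule's scaling and 0.05 to 0.10 with an array left out. Same-numbered arrays of day 7 and passage 10 share only a number (r of their deviations -0.0601), and a replicate block gave 48 called members (21 higher, 27 lower). The alternative limited to the 72 members bright in both groups, chosen after seeing the data, gave 48 calls. Z00052393-1, counted as lower, was not well above background on any array of either group.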

Other observations

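The members' probes are poor in G and C. Their median GC content was 38.3% (quartiles 35.0% and 43.8%), against 45.0% (38.3% and 51.7%) for all tested probes and 43.3% (36.7% and 48.3%) for the 615 other probes raised as much at 48 h of RA. The letters AATAAA, searched on the probe strand, were in 4 members (5.0%, all tested probes 7.38%), and ATTAAA in 1 member (1.25%, all tested probes 3.18%). These values are descriptions of the printed strand, with no test. The part of base composition in the members' values was not tested. The reference channel of the members varied across arrays about as it did elsewhere, with a median SD of 0.137 in log2 Cy5 against 0.124 for all tested probes, and 78 of 80 members were well above background in Cy5 on all 14 arrays.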
